A study of Mus musculus with 24 samples.

Results

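The histone methyltransferase MLL1, its partner Menin and the histone mark H3K4me3 were mapped in one mouse leukaemia cell line, NUP98-HOXA9, and their peaks in DMSO-treated cells were set against each other. The members are all peaks on chromosomes 1 to 19 and X of 3 deposited peak lists, 40647 of the 101957 peaks in the DMSO lists of the series. They divide into 22339 peaks of MLL1, 8961 of Menin and 9347 of H3K4me3. The series holds 24 libraries of chromatin immunoprecipitation sequencing (ChIP-seq) from mouse leukaemia cells with NUP98 fusions, of which 14 have peak lists, and it was made to study VTP50469, an inhibitor of the contact between menin and MLL1. No library of VTP50469-treated cells enters the comparisons here. All 3 libraries come from the line labelled NUP98-HOXA9, named for a fusion of the nuclear pore protein NUP98 with the homeobox transcription factor HOXA9, grown in medium with mouse interleukins 3 and 6 and stem cell factor. MLL1 was mapped after 72 h in DMSO, and Menin and H3K4me3 after 96 h in DMSO. The title of the MLL1 library also carries another date and a longer name for the line, so antibody, time and date cannot be told apart wherever MLL1 is set against the other lists. The line is 1 line and each antibody has 1 library, so there is no replicate check and no test between conditions, and the intervals below cover counting error over peaks, regions or genes only. In places, DMSO lists of other NUP98 fusion lines at 96 h are set beside these. They are MLL1 and Menin in NUP98-HOXD13, and MLL1 in NUP98-JARID1A and in NUP98-NSD1.

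MLL1, encoded by Kmt2a, methylates lysine 4 of histone H3 and carries a CXXC domain that binds DNA with unmethylated CpG dinucleotides. Menin, encoded by Men1, is a scaffold protein that binds the N-terminus of MLL1. H3K4me3, the trimethylated form of that lysine, is laid down by several enzymes of the MLL and SETD1 family and typically marks the nucleosomes beside active promoters, while the start site itself is often free of nucleosomes. In leukaemias with MLL or NUP98 rearrangements, menin and MLL1 are known for their place at HOXA and MEIS1 genes.

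The main pattern can be read in single promoters. The 7 shown are examples of the combinations described below, with none for Menin alone or for Menin with H3K4me3. They are RefSeq promoter sequences of build GRCm38.p6, 250 bases before and 50 bases after the start, with every CpG in capitals. Within 1 kb of the start, Rpl31 and Kmt2a had peaks of all 3 lists and Sox4 had MLL1 and H3K4me3. S100a9 and the histone gene H4c3 had MLL1 and Menin, the histone gene H3c2 had MLL1 alone, and Mpo had H3K4me3 alone.
Rpl31: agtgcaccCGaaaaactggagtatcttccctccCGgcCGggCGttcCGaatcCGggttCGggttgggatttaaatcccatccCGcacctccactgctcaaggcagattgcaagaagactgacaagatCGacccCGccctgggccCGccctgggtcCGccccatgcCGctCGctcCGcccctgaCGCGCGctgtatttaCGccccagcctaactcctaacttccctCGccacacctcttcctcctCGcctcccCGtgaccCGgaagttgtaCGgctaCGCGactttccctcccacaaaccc
Kmt2a: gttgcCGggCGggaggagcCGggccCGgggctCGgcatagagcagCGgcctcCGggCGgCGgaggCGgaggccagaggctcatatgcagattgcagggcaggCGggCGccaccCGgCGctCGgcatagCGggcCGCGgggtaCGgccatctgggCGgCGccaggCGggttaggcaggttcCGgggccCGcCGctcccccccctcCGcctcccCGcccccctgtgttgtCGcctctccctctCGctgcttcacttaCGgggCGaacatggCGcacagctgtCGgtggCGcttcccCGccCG
Sox4: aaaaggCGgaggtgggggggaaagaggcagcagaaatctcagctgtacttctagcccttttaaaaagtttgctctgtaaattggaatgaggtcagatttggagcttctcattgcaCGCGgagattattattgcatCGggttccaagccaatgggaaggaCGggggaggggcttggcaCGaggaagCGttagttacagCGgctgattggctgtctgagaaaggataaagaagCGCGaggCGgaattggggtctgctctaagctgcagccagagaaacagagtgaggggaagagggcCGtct
S100a9: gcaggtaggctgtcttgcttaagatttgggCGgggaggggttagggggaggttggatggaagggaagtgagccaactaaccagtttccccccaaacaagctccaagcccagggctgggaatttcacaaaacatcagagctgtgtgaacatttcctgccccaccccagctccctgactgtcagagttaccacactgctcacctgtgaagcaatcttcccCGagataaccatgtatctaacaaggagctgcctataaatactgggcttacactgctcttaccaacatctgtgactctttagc
H4c3: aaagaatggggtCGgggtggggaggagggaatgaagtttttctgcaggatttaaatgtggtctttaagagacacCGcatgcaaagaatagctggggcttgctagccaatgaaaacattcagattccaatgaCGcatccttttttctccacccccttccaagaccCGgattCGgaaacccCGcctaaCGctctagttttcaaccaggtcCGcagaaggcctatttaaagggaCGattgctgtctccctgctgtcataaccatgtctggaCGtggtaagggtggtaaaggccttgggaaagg
H3c2: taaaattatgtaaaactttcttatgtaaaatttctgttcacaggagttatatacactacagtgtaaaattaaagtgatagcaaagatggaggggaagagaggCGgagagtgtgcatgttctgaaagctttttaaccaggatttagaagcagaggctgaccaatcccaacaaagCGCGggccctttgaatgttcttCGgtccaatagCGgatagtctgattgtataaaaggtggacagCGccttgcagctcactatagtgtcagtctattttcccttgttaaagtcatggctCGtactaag
Mpo: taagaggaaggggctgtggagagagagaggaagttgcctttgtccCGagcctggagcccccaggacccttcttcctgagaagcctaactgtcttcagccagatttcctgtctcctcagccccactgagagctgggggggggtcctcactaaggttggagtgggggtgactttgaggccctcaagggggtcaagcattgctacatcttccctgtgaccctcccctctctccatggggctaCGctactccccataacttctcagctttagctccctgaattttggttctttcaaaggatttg
These windows lie at chr1:39367601-39367900 (+) for Rpl31, chr9:44881240-44881539 (-) for Kmt2a, chr13:28953650-28953949 (-) for Sox4 and chr3:90695672-90695971 (-) for S100a9. Those of H4c3, H3c2 and Mpo lie at chr13:23698409-23698708 (-), chr13:23752095-23752394 (+) and chr11:87793534-87793833 (+). The window of Rpl31 has 26 CpG and that of Kmt2a 36, against 12 in Sox4, 10 in H4c3, 7 in H3c2, and 2 each in S100a9 and Mpo. Rpl31 encodes a protein of the large ribosomal subunit. Its MLL1 summit stood at −23 bases from the start and its Menin summit at −49. The H3K4me3 summit of Rpl31 stood at +274, inside the gene, and its peak touched no base of the window. The H3K4me3 peaks of Sox4 and Mpo touched no base of their windows either, and the H3K4me3 summit of Sox4 stood at +1268. Kmt2a differed, with H3K4me3 over all 300 bases of its window and the H3K4me3 summit at +385. Its MLL1 and Menin summits stood at −152 and −210. In S100a9, a gene of neutrophil calprotectin, the MLL1 summit stood at −98 bases from the start and the Menin summit at −145, and the nearest H3K4me3 peak lay 78919 bp from the gene.

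Peaks that shared at least 1 bp were joined, which gave 23241 regions in 7 combinations. MLL1 alone made up the largest class, 10465 regions or 45.03% (95% Wilson interval 44.4 to 45.7). All 3 lists met in 4731 regions, 20.4% of the total (19.8 to 20.9), MLL1 and Menin without H3K4me3 in 3767 (16.2%), and MLL1 and H3K4me3 without Menin in 2892 (12.4%). Regions of H3K4me3 alone numbered 1116 (4.80%) and those of Menin alone 264 (1.136%). Menin and H3K4me3 met without MLL1 in only 6 regions. Nearly every Menin peak therefore overlapped MLL1, 8689 of 8961 or 97.0% (96.6 to 97.3), and 87.9% of H3K4me3 peaks did so (87.3 to 88.6). In the other direction 38.2% of MLL1 peaks overlapped Menin (37.6 to 38.8) and 36.3% overlapped H3K4me3 (35.6 to 36.9). The MLL1 list is the longest of the 3. When each list was cut to its 8961 peaks of highest −log10 q, 75.5% of MLL1 peaks overlapped Menin and 60.0% overlapped H3K4me3, and MLL1 alone numbered 1122 regions. In these lists Menin and H3K4me3 met without MLL1 in 307 regions and Menin alone numbered 1729. The near-complete overlap of Menin with MLL1 was thus seen with the full MLL1 list and not with the cut one. This cut keeps every Menin peak but only MLL1 peaks with a −log10 q of at least 26.28, so that overlap could only fall. With a −log10 q of at least 5 in every list, the same classes numbered 6 and 249 regions.

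**Figure D1:**
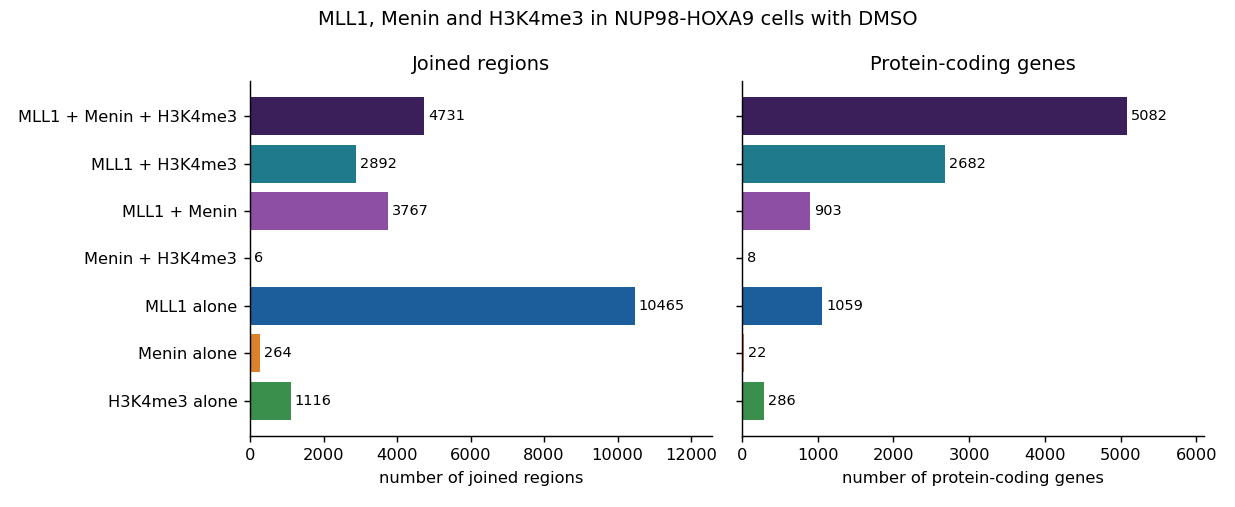
Number of joined regions (left, x axis) and of protein-coding genes with peaks at their ends (right, x axis) in the 7 combinations of MLL1, Menin and H3K4me3 in NUP98-HOXA9 cells with DMSO, 1 library per antibody. MLL1 alone is the largest class of regions with 10465, whereas all 3 lists together form the largest class of genes with 5082.

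The 6 regions with Menin and H3K4me3 but no MLL1 peak lay at Golm2, Tnk2, Ndufa3, Septin9, S1pr3 and Dock2. The strongest Menin peak among them, at the start of Golm2 (chr2:121866751-121867777), had a fold of 6.47, under the list's median of 8.53. Here and below, the fold is the authors' own enrichment value of a peak and is used only within 1 list.

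The combinations differed in where they lay. Of the regions with all 3, 89.7% (88.8 to 90.6) touched the window of 1 kb around a protein-coding gene's end, as did 81.9% of those with MLL1 and H3K4me3. For MLL1 with Menin the share was 24.7% (23.4 to 26.1), and 36.6% of these regions lay inside a gene far from its ends and 38.7% between genes, a median of 8856 bp from the nearest gene end. MLL1 alone lay less often at gene ends and more often inside genes, with 13.7% at gene ends (13.1 to 14.4), 53.1% inside genes and 33.2% between them. Regions of H3K4me3 alone were intermediate, with 44.6% at gene ends (41.7 to 47.6). Menin was found in 58.7% of MLL1 peaks that touched H3K4me3 (57.6 to 59.8) and in 26.5% of those that did not (25.8 to 27.2). With lists of equal length these shares were 80.0% and 68.7%.

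The 3 lists met in the same regions more often than on the same bases. Of the 19.2 Mb covered by any list, 0.709 Mb (3.70%) lay under all 3. MLL1 covered 96.0% of Menin's bases and 52.6% of those of H3K4me3, while only 19.1% of Menin's bases were under H3K4me3 and 9.07% of H3K4me3's bases under Menin. By direct overlap, without joining through an MLL1 peak, 40.7% of Menin peaks touched an H3K4me3 peak, whereas 54.6% of them lay in a region with all 3. When the overlap had to reach 50% of the shorter peak, 3103 regions held all 3 and 3829 held H3K4me3 alone.

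The summits show this geometry. In regions with all 3, the Menin summit lay a median of 37 bp from the nearest MLL1 summit (quartiles 16 and 70), and 83.7% of Menin summits were within 100 bp of one. The H3K4me3 summit lay a median of 394 bp from the nearest MLL1 summit (quartiles 296 and 540), with 1.22% within 100 bp, and 409 bp from the nearest Menin summit. At the 5′ starts of genes with all 3 lists, the MLL1 summit stood at a median of −23 bp, the Menin summit at −26 bp and the H3K4me3 summit at +319 bp, and of the 3912 of 4056 such genes with an H3K4me3 summit within 1 kb of the start, 83.9% had it downstream. The same order was seen at genes without a Menin peak: at those with MLL1 and H3K4me3, the MLL1 summit stood at a median of +6 bp and the H3K4me3 summit at +309.5 bp. At the 5′ starts with MLL1 and Menin but no H3K4me3, both summits again stood at the start, at medians of +0.5 and −3 bp. Over all regions with MLL1 and Menin but no H3K4me3, at gene ends or not, the Menin summit lay a median of 34 bp from the nearest MLL1 summit, with 88.0% within 100 bp.

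**Figure D2:**
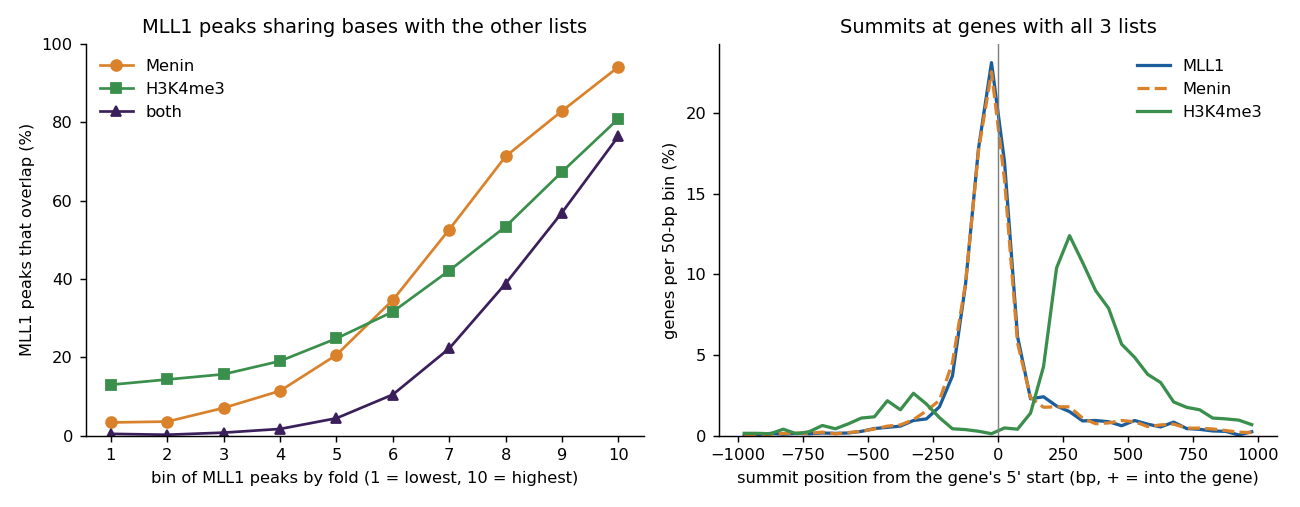
Left, share of MLL1 peaks (y axis, %) that overlap Menin, H3K4me3 or both, in 10 equal bins of the MLL1 list by fold (x axis); right, share of genes (y axis, % per 50-bp bin) by the distance of the summit from the 5′ start (x axis, bp) at genes with all 3 lists. Overlap with Menin climbs to 94.1% in the top bin, against 3.40% in the lowest, and the MLL1 and Menin curves lie on each other at the start while that of H3K4me3 peaks inside the gene, with a median of +319 bp.

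Overlap followed the strength of MLL1. The MLL1 peaks were split by fold into 10 bins of equal size. In the bin of highest fold, above 24.5, 94.1% overlapped Menin, 80.9% overlapped H3K4me3 and 76.4% overlapped both. In the bin of lowest fold, up to 4.54, 3.40% overlapped Menin, 13.03% overlapped H3K4me3 and 0.492% overlapped both. The median fold of MLL1 peaks was 19.6 in regions with all 3, 12.2 with Menin, 8.51 with H3K4me3 and 5.95 alone. Menin and H3K4me3 peaks varied less: Menin had a median fold of 9.12 with both others, 8.24 with MLL1 and 6.18 alone, and H3K4me3 one of 6.96, 6.75 and 4.64 in the matching classes. These are descriptions of peaks in 1 library per antibody, and weak peaks near the authors' limit, a −log10 q of about 2, are the first to be missed in any list. In bulk chromatin, a weak peak from few cells and one from weak binding in all cells cannot be told apart.

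Within each list, and among classes of at least 20 peaks, the median width was largest in regions with all 3 and smallest alone. MLL1 peaks had a median width of 883 bp with both others (quartiles 661 and 1226), 671 bp with H3K4me3, 564.5 bp with Menin and 381 bp alone (288 and 543). Menin peaks were narrow in every class, with medians of 406 bp with both others, 345 bp with MLL1 and 270.5 bp alone. H3K4me3 peaks had medians of 760 bp with both others, 731 bp with MLL1 and 460 bp alone. A wide peak has more bases on which another can fall. When the other lists were counted only within 500 bp of a peak's summit, an alternative chosen after seeing the data, the MLL1 medians were 883, 603, 569.5 and 385 bp and kept their order. With lists of equal length they were 921, 797, 622 and 626.5 bp, so that peaks of MLL1 alone were no longer narrower than those with Menin. For H3K4me3 the order of the upper classes turned, at 727 bp with both others and 748 bp with MLL1 by the summit count, and 806 and 830.5 bp when 50% overlap was required.

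**Figure D3:**
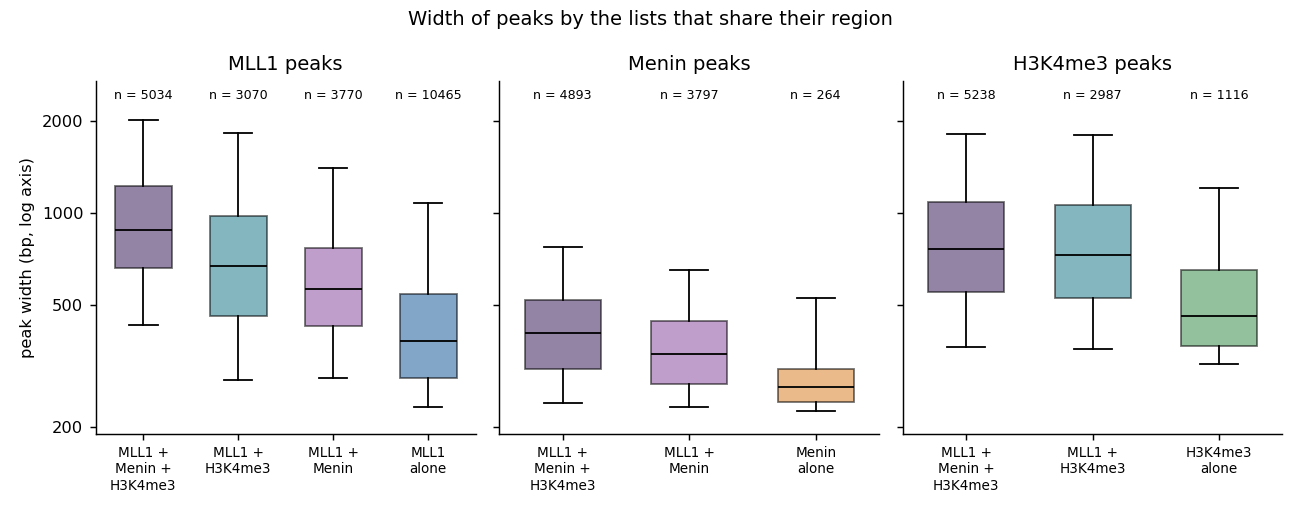
Width of peaks (y axis, bp, log axis) of MLL1, Menin and H3K4me3 by the combination of lists in their region, for classes of at least 20 peaks. Lines in the boxes are medians, boxes the quartiles and whiskers the 5th and 95th percentiles; in all 3 lists the peaks that share no base with another list are the narrowest, at medians of 381, 270.5 and 460 bp.

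Of the MLL1 peaks, 50 were 4 kb or wider, 35 of them touched Menin, 33 touched H3K4me3, 24 both and 6 neither. Menin peaks covered 26.4% of the bases of these 50 and H3K4me3 peaks 32.9%, against 23.9% and 19.6% in MLL1 peaks under 1 kb. The Menin value rested in large part on 4 peaks: in the 46 with a fold of at least 5, Menin covered 12.3% of the bases and H3K4me3 26.9%. The 46 still include chr17:39843009-39848822 and chr1:24612166-24616181, which Menin covered over 99.97% and 79.9% of their length. The 4 peaks of lower fold, between 2.10 and 4.42, were covered by Menin over 90.0% to 100% of their length. The widest, chr9:3000197-3038083, lies 297148 bp from the nearest gene and was covered over its whole length by H3K4me3 too. At the Hoxa cluster, whose homeobox transcription factors include Hoxa9, one MLL1 peak of 23187 bp (chr6:52211278-52234464) touched Hoxa3, Hoxa7, Hoxa9 and Hoxa10 and had a fold of 64.7. Menin peaks held 802 bp of it and H3K4me3 peaks 9979 bp. At Pbx3, a HOX cofactor, an MLL1 peak of 17614 bp (chr2:34355720-34373333, fold 92.4) held 1663 bp of Menin and 3545 bp of H3K4me3. The 6 wide MLL1 peaks with neither lay at Zcchc7, Pik3r1, Erg, Gtf2f2 and Kctd4, Zfp407, and Ahi1. That in Zcchc7, a zinc knuckle gene, was 11862 bp long (chr4:44770058-44781919) with a fold of 29.4. In the DMSO lists of NUP98-HOXD13, another NUP98 line, 6075 bp of it were under MLL1 and 968 bp under Menin, while the MLL1 lists of the NUP98-JARID1A and NUP98-NSD1 lines held 0 bp of it.

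**Figure D4:**
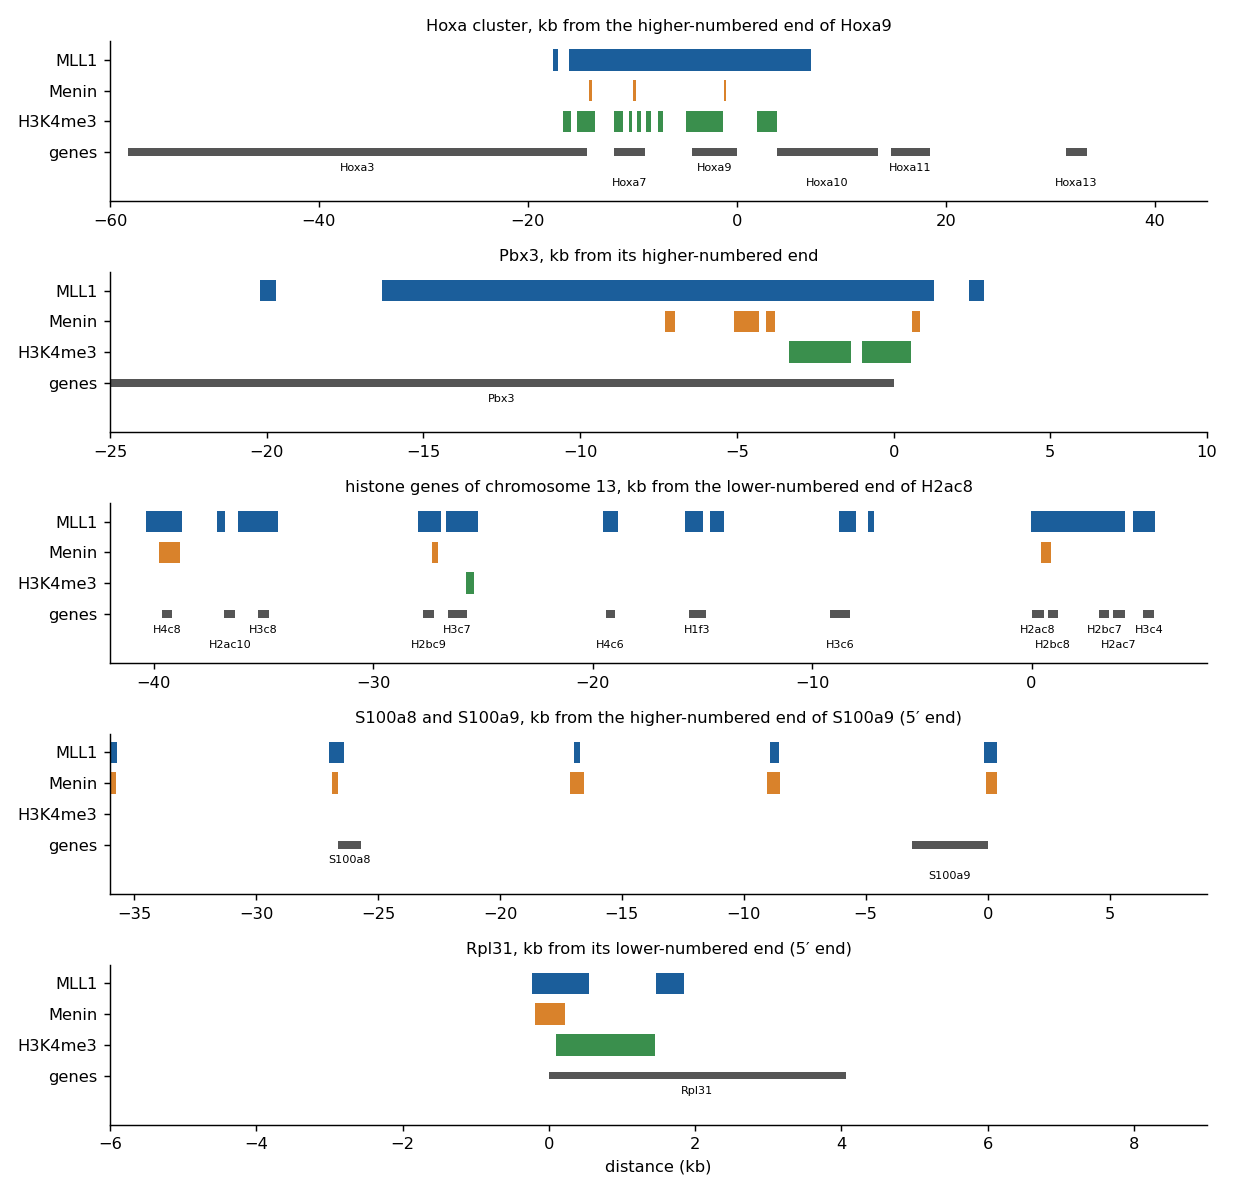
Peaks of MLL1, Menin and H3K4me3 (bars) and gene bodies (grey) at 5 loci, with distance in kb from a gene end on the x axis of each panel. The MLL1 peak of 23187 bp at Hoxa and that of 17614 bp at Pbx3 carry short Menin peaks, the histone genes carry MLL1 with few H3K4me3 peaks, and S100a8 and S100a9 carry paired MLL1 and Menin peaks.

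By genes, 10042 of 21631 protein-coding genes (46.4%) had a peak of any list within 1 kb of either end. Both ends of a gene were pooled, so the peaks of different lists need not lie at the same end. All 3 lists had peaks at 5082 (23.5%), MLL1 and H3K4me3 at 2682 (12.4%), MLL1 and Menin at 903 (4.17%), and MLL1 alone at 1059 (4.9%). Counted at the 5′ start only, 4056 of 17274 genes had all 3. H3K4me3 alone was found at 286 (1.32%), Menin alone at 22 (0.102%) and Menin with H3K4me3 at 8 (0.037%). With lists of equal length all 3 had peaks at 4628 genes, MLL1 and H3K4me3 at 1102, MLL1 alone was found at 316 and H3K4me3 alone at 1805. Of genes with MLL1, 61.5% had Menin and 20.2% lacked H3K4me3. Menin lay at 65.5% of the genes with both MLL1 and H3K4me3 and at 46% of those with MLL1 and no H3K4me3.

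The label of the cells was checked against markers of haematopoietic and myeloid progenitors. All 8 had a peak at their ends: Myb had all 3, Ptprc, Kit and Cebpa had MLL1 and H3K4me3, Spi1 and Csf3r had MLL1 and Menin, Cd34 had MLL1 alone and Mpo had H3K4me3 alone. Spi1, which encodes the myeloid factor PU.1, is one gene where the window matters, since an H3K4me3 peak of 2206 bp lay inside the annotated gene, at chr2:91096795-91099000. Of markers of other cell types, peaks lay at 1 of 15 neuronal genes, 0 of 12 hepatocyte genes, 2 of 12 fibroblast and endothelial genes, 2 of 18 lymphoid genes, 3 of 16 erythroid and megakaryocyte genes and 1 of 10 mast cell and basophil genes, against 46.4% of all genes. Peaks also lay at 1 of 48 developmental transcription factor genes, 10 of 1106 olfactory receptor genes, 6 of 353 vomeronasal receptor genes and 1 of 104 keratin genes.

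Many genes of basic cell functions carried all 3 lists. Of 84 ribosomal protein genes, 64 had all 3 (76.2%, against 23.5% of all genes) and 10 had MLL1 and H3K4me3. Of 39 proteasome subunit genes, 25 had all 3 (64.1%) and 10 had MLL1 and H3K4me3. Mitochondrial ribosomal protein genes had Menin less often than the ribosomal list, at 50.7% against 77.4%, but more often than all genes, at 27.8%. Of the 75, 35 had all 3 (46.7%) and 28 had MLL1 and H3K4me3, a class that held 12.4% of all genes. Oxidative phosphorylation genes were alike, with Menin at 54.7% and with 44 and 22 of 86 in these classes. In the ribosomal list H3K4me3 peaks covered 135% of the length covered by MLL1 peaks, counted over gene bodies and 2 kb either side, whereas over all genes they covered 63.6% of it. Ribosomal protein genes have near-identical copies elsewhere in the genome, so their peaks are less certain. Of 28 cell cycle regulators 15 had all 3 (53.6%), and of 26 housekeeping genes 17 did (65.4%). Of 367 zinc finger protein genes 83 had all 3 and 87 had MLL1 and H3K4me3, shares of 22.6% for all 3 against 23.5% of all genes.

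A list of 26 genes held MLL family enzymes, their subunits and partners, and also genes such as Nup98, Kdm5a, Nsd1, Kdm6a, Aff1 and Mllt3. Of the 26, 16 had all 3 lists (61.5%, against 23.5% of all genes), 5 had MLL1 and H3K4me3 and 1 had MLL1 and Menin. Of the others, 1, Nsd1, had MLL1 alone and 3 had no peak at their ends. Kmt2a itself had folds of 28.4 for MLL1, 14.1 for Menin and 14.6 for H3K4me3. Kmt2d, which encodes a related methyltransferase, had 42.8, 29.1 and 8.65, and Men1 had 9.64, 8.53 and 5.91. Setd1a and Setd1b, the SETD1 methyltransferases, had MLL1 and H3K4me3 without Menin, as had Psip1, which encodes the MLL1- and menin-binding protein LEDGF, and Hcfc1 had MLL1 and Menin.

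Histone genes mostly carried MLL1 without H3K4me3. Of 63 replication-dependent histone genes, which lie in clusters and are expressed in S phase, 60 had MLL1 at their ends (95.2%, against 45% of all genes), 29 had Menin (46%, against 27.8%) and 8 had H3K4me3 (12.7%, against 37.3%). MLL1 without H3K4me3 was found at 52, or 82.5%, against 9.07% of all genes: 26 had MLL1 and Menin and 26 had MLL1 alone. Over their bodies and 2 kb either side H3K4me3 covered 4.26% of the length covered by MLL1. The MLL1 folds reached 35.8 at H3c15 and H2ac19 on chromosome 3, which were among the 3 histone genes with all lists, and 28.9 at H4c1 and H3c1 on chromosome 13, which had Menin at 6.98 and no H3K4me3. The count was 58 of 63 with −log10 q of at least 5 in every list, 45 of 63 with lists of equal length and 49 of 58 at 5′ starts. Histone genes are near-identical copies that lie close together, so reads may be split between copies and 1 peak can touch several genes. Their part in the low H3K4me3 count was not tested.

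**Figure D5:**
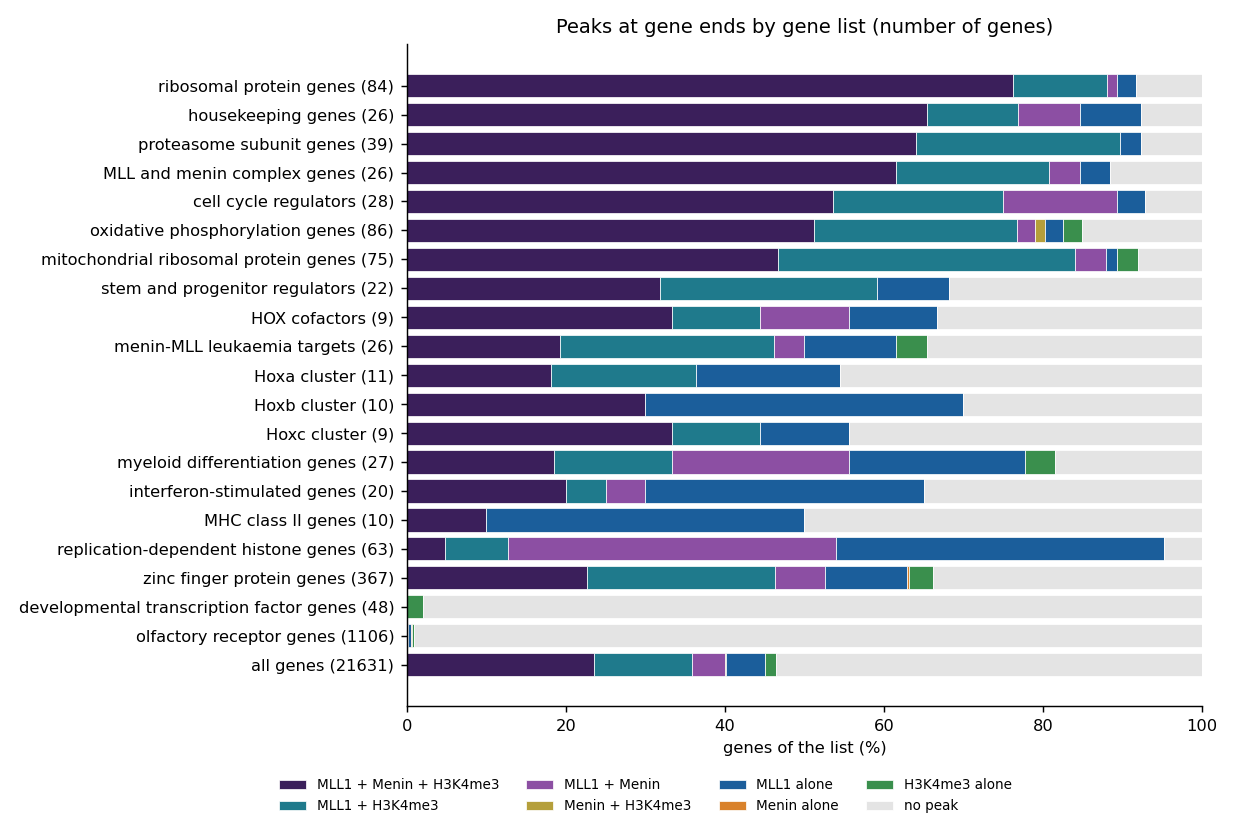
Share of the genes of each list (x axis, %) that had each combination of MLL1, Menin and H3K4me3 within 1 kb of a gene end; numbers of genes are in parentheses and the bottom bar holds all genes. The ribosomal protein genes are mostly in the class with all 3 (76.2%), and 82.5% of the histone genes had MLL1 without H3K4me3, against 9.07% of all genes.

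The Hox clusters were strong in MLL1 and mixed in the rest. The highest MLL1 fold at any gene with all 3 lists was 106.6, at Hoxc4 and Hoxc5, which share 1 peak of 6291 bp, followed by Pbx3 at 92.4. Of 11 Hoxa genes, Hoxa3 and Hoxa7 had all 3 at their ends, Hoxa9 and Hoxa10 had MLL1 and H3K4me3, and Hoxa2 had MLL1 alone at a fold of 21.3. A Menin peak of 255 bp with a fold of 5.885 lay inside Hoxa9, outside the window. Of 10 Hoxb genes, Hoxb3, Hoxb4 and Hoxb5 had all 3, whereas Hoxb6, Hoxb7, Hoxb8 and Hoxb9 had MLL1 alone at their ends. Hoxb7 and Hoxb8 shared an MLL1 peak with a fold of 74.6, the highest among genes with MLL1 alone, and an H3K4me3 peak of 620 bp lay inside Hoxb8, outside the window. Of 9 Hoxc genes 3 had all 3 lists, and none of the 9 Hoxd genes had any peak. H3K4me3 covered 36.9% of the MLL1 length at Hoxa, 29.8% at Hoxb and 28.5% at Hoxc, against 63.6% over all genes.

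Of 26 genes known as menin and MLL1 targets in leukaemia, 16 had MLL1 at their ends (61.5%, against 45% of all genes), 6 had Menin (23.1%, against 27.8%) and 13 had H3K4me3 (50%, against 37.3%). Counted over the gene and 2 kb either side, 24 had MLL1, 16 had Menin and 21 had H3K4me3. For all 21631 genes these counts were 11469, 7489 and 9169. Long genes have more room for a peak in this count. With lists of equal length, 5 of the 26 had MLL1 at their ends, near the 6 with Menin. That cut leaves the Menin list whole and keeps only MLL1 peaks with a −log10 q of at least 26.28, so the MLL1 count could only fall. With a −log10 q of at least 5 in every list, 16 of the 26 had MLL1. Meis1, the HOX cofactor, had 10718 bp of MLL1 in and around the gene, 457 bp of Menin in 1 peak of fold 4.12, and 587 bp of H3K4me3. Cdk6, a cyclin-dependent kinase gene, had 15593 bp of MLL1 in 18 peaks, 687 bp of Menin in 2 peaks and 4004 bp of H3K4me3 in 1 peak. Both Menin peaks of Cdk6 lay inside the gene, the stronger with a fold of 10.3 at chr5:3497540-3497940. Myb, Myc, Bcl2, Dot1l and Pbx3 had all 3 lists at their ends. Among all genes the longest MLL1 cover was 31785 bp at Foxp1, a forkhead transcription factor gene, with 1164 bp of Menin and 3661 bp of H3K4me3. Of 22 stem and progenitor regulators 7 had all 3 (31.8%, near the 23.5% of all genes), among them Runx1, Hhex, Tal1 and Lyl1. A further 6 had MLL1 and H3K4me3, among them Etv6, Fli1 and Ikzf1, 2 had MLL1 alone, and 7 had no peak at their ends, among them Erg, Lmo2 and Mecom. Over the gene and 2 kb either side, however, 20 of the 22 had MLL1, 14 had Menin and 17 had H3K4me3. By that count MLL1 covered 15760 bp at Erg, 4074 bp at Lmo2 and 1265 bp at Mecom. H3K4me3 covered 2630, 2257 and 0 bp in the same order. Of 9 HOX cofactor genes 3 had all 3 (33.3%), and Pknox1 had the highest Menin fold of them, 40.6.

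At the ends of many myeloid effector genes and interferon genes, too, MLL1 came without H3K4me3. Of 27 myeloid differentiation genes, 21 had MLL1, and at 12 of them (44.4%, against 9.07% of all genes) no H3K4me3 peak lay at the ends. Among these 12, Spi1 and Csf3r had 2206 and 694 bp of H3K4me3 over the gene and 2 kb either side, and the others none. By that measure H3K4me3 covered 88.8% of the MLL1 length in the whole myeloid list and 36.0% in the interferon list, against 63.6% over all genes. S100a8 and S100a9, the calprotectin genes, had MLL1 folds of 16.2 and 24.95 and Menin folds of 7.89 and 19.1. Between and beside them lay 3 further pairs of MLL1 and Menin peaks, and no H3K4me3 peak lay within 10 kb of the locus. Itgam, an integrin gene, Camp, which encodes cathelicidin, Spi1 and Csf3r completed the 6 with MLL1 and Menin. Cebpa and Cebpb, C/EBP transcription factor genes, had MLL1 and H3K4me3 with no Menin peak in or near the gene, while Cebpd and Gfi1 had all 3. Mpo, the myeloperoxidase gene, was the opposite case: H3K4me3 covered 2946 bp of it and neither MLL1 nor Menin had a peak within its window, the nearest of each lying 3392 and 3402 bp before the gene with folds of 6.52 and 12.9. Of 20 interferon-stimulated genes 13 had MLL1 and 8 of these lacked H3K4me3 (40%, against 9.07%), among them Usp18 with a fold of 22.7, and Stat2, Irf1 and Bst2 were among those with all 3. Of 10 MHC class II genes 4 had MLL1 alone (against 4.9% of all genes) and 1, H2-DMa, had all 3 (against 23.5%). The annotated span of H2-DMa overlaps that of Brd2, which also had all 3, and to which gene these peaks belong was not tested. With lists of equal length the counts of MLL1 without H3K4me3 were 7 of 27 myeloid genes (25.9%, against 5.13% of all genes) and 2 of 20 interferon genes (10%).

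Promoter sequence differed between the classes. A promoter of 300 bases in the RefSeq table was matched to 17274 of the 21631 genes, and the classes here are those at the 5′ start. The median ratio of observed to expected CpG was 0.848 at genes with all 3, 0.779 with MLL1 and H3K4me3, 0.723 with MLL1 and Menin, 0.614 with MLL1 alone and 0.719 with H3K4me3 alone, against 0.276 at genes with no peak and 0.586 over all promoters. The median number of CpG was 24 with all 3 and 5 at genes with no peak. Of 6 short motifs searched on both strands, none of which contains another, CCGGAAG, a sequence that ETS factors can bind, was found in 27% of promoters with all 3, 17.6% with MLL1 and H3K4me3, 16.6% with MLL1 and Menin, 12% with MLL1 alone and 6.88% with H3K4me3 alone, against 12.1% of all promoters. The motif CGCG was found in 82.4% of promoters with all 3, against 50.1% of all, and GGGCGG in 74.7%, against 46.9%. The TATA sequence TATAAA was found in 5.03% of promoters with all 3 and 10.2% with MLL1 alone, against 13.4% of all. CCAAT was found in 38.8% of promoters with all 3, against 39.6% of all, and ACTACAA in 4.61%, against 3.87%. Of 58 histone promoters 86.2% held CCAAT and 58.6% held TATAAA, and their median observed to expected CpG was 0.748. In the 21 myeloid promoters that ratio was 0.263. Letters that match a motif do not show that a factor binds there.

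The remaining DMSO lists of the series, which played no part in making the combinations, contained them to different degrees. Of regions with all 3 in NUP98-HOXA9, 99.7% were also in the Menin list of NUP98-HOXD13 (99.5 to 99.8) and 99.8% in its MLL1 list. Of regions with MLL1 and H3K4me3 but no Menin peak in NUP98-HOXA9, 87.4% were in the Menin list of NUP98-HOXD13 (86.2 to 88.6), as were 40.8% of those with MLL1 alone and 19.2% of those with H3K4me3 alone. The Menin list of NUP98-HOXA9 has 8961 peaks and that of NUP98-HOXD13 18644, and a region without a Menin peak is one with no Menin above the limit of its list. The MLL1 list of NUP98-JARID1A held 98.0% of the regions with all 3, 84.9% with MLL1 and H3K4me3, 78.2% with MLL1 and Menin and 30.1% with MLL1 alone. The shortest list, MLL1 in NUP98-NSD1 with 7064 peaks, held 59.5%, 47.2%, 16.7% and 11.1% in the same order. Of MLL1 peaks, 38.2% overlapped Menin in NUP98-HOXA9 and 77.2% in NUP98-HOXD13. In lists of 8961 peaks each the shares were 75.5% and 86.2%. MLL1 was mapped at 72 h in NUP98-HOXA9 and at 96 h in the other lines, so line and time cannot be told apart here.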

How the data were processed

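ChIP-seq with antibodies against MLL1, Menin (both Bethyl) and H3K4me3 (Abcam) was done on formaldehyde-fixed, sheared chromatin and sequenced with paired-end reads, per the labels' protocols. Per the submitters' processing notes, the reads went through MACS2, bedtools, SAMtools, STAR 2.7.5a, Picard 2.9.4 and bcl2fastq 2.20.0.422, with build mm10 and in an order not stated. The sources used here do not say with which settings, or which input served as control. The labels list an input of DMSO cells at 72 h, and both 96 h inputs are of VTP50469 cells. Each deposited peak list belongs to 1 library, so peaks were called per sample. Each row holds an interval, a fold enrichment (a ratio, as the authors deposited it), a summit and the p and q on a −log10 scale. The lowest deposited −log10 q was 2.05 for MLL1, 2.02 for Menin and 2.03 for H3K4me3. Read depth is unknown from such lists, so no precision from depth can be given.

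Peaks on chromosomes 1 to 19 and X were used. Peaks of different lists that shared at least 1 bp, directly or through another peak, were joined to 1 region. A gene was counted for a list when a peak lay within 1 kb of either end of a protein-coding gene in the RefSeq table of GRCm38.p6. That table has no strand, which came from the RefSeq promoter table for 17274 genes. Covered length was taken over the gene and 2 kb either side. Shares carry 95% Wilson intervals. No p-value was computed, since there is 1 library per antibody. The joining and counting were tested on simulated intervals with known combinations. Python 3.11.15, pandas 2.3.3, numpy 2.4.6 and scipy 1.17.1 were used. The members and the 29 gene lists were chosen with earlier results of these data known. Genes named are members of those lists, the 3 of highest fold in each combination, the 10 with the longest cover in each list, those with the largest difference in cover between MLL1 and H3K4me3, and the widest regions. The promoters printed were chosen as examples after their values were seen. Alternatives varied the overlap, the limit on −log10 q, the length of the lists, the gap, the window and the gene end.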

Additional observations from a re-analysis of the deposited data

Results flagged for a closer look

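Peaks outside chromosomes 1 to 19 and X were left out of the comparisons: 195 of the MLL1 list, 89 of the Menin list and 96 of the H3K4me3 list. They are listed because they hold signal in data outside the main measurement, and no control list was set beside them.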

How the results depend on the processing

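Results are the counts of regions and genes in the 7 combinations and the median widths. Lists of equal length moved the most results, 19 of 24: regions became 1066 for MLL1 with H3K4me3, 2461 for MLL1 with Menin, 307 for Menin with H3K4me3, 1122 for MLL1 alone, 1729 for Menin alone and 2808 for H3K4me3 alone. Gene counts became 1102 for MLL1 with H3K4me3, 399 for Menin with H3K4me3, 316 for MLL1 alone, 194 for Menin alone and 1805 for H3K4me3 alone. Widths became 921, 797, 622 and 626.5 bp for MLL1 (all 3, with H3K4me3, with Menin, alone), so MLL1 alone was then no longer below MLL1 with Menin, 415, 381 and 293 bp for Menin (all 3, with MLL1, alone) and 652 bp for H3K4me3 alone. This alternative shortens the MLL1 list by construction. Requiring 50% overlap gave 3103 regions with all 3 and 3829 of H3K4me3 alone, and widths of 1021, 753, 613 and 393 bp for MLL1, 360 bp for Menin with MLL1, and 806, 830.5 and 618 bp for H3K4me3 (all 3, with MLL1, alone). A −log10 q of at least 5 gave widths of 705 bp (with H3K4me3) and 402 bp (alone) for MLL1, 412 bp (all 3) and 351 bp (with MLL1) for Menin, and 775, 748 and 533 bp for H3K4me3. Joining across 500 bp left 722 regions of H3K4me3 alone. Genes with Menin and H3K4me3 numbered 5 with a window of 2.5 kb and 5 at 5′ starts. Counting other lists within 500 bp of the summit, chosen after seeing the data, gave 603 bp for MLL1 with H3K4me3 and 727, 748 and 486 bp for H3K4me3. Using all sequences of the lists, also chosen after seeing the data, moved 0 of 17 results. Other causes were not tested. No paired analysis was possible because each antibody has 1 library. Read depth is unknown, so a missing peak is not absence.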

Other observations

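Some single genes stood at the ends of the classes. Abhd11, Sde2 and AW549877 had the highest MLL1 folds among genes with MLL1 and Menin and no H3K4me3, at 64.9, 55.3 and 49.0, with Menin folds of 35.3, 28.3 and 17.7. Nacc1, Thra, a thyroid hormone receptor gene, and Cyc1, which encodes cytochrome c1, had the highest H3K4me3 folds among genes with H3K4me3 alone, at 12.2, 11.6 and 11.2. The 22 genes with Menin alone were led by Osbp2, Pcbp3 and Epgn at Menin folds of 11.5, 10.3 and 8.57. The highest fold in the Menin list was 66.8.

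The MLL1 peak of highest fold in the list, 143.2, lay between genes at chr1:24612166-24616181. Menin covered 79.9% of it and H3K4me3 70.0%. A peak at chr17:39843009-39848822 had an MLL1 fold of 11.9 with Menin over nearly its whole length and no H3K4me3. Neither position was looked up in a genome sequence, which was not used here.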
